A study of Homo sapiens with 6 samples.

Results

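The genes described here are the better expressed members of the ZNF series, that is, genes whose symbol is ZNF followed by digits and at most 1 letter. They were selected on their level in control cells, with a mean of at least 2 FPKM (fragments per kilobase of transcript, scaled to the reads of the library) over the 3 control libraries. This rule took 262 of the 388 ZNF genes in the deposited table of 11846 genes, and the other 126 had control means under 2 FPKM. The level in control cells is therefore a description of the members and was not tested.

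The libraries came from AGS, a human gastric adenocarcinoma line, as poly(A) RNA in 3 libraries with knockdown of the pseudogene ANXA2P1 and 3 control libraries, which the series design calls biological replicates. The labels of the control samples name scr-shRNA for the control and ANXA2P1-shRNAp for the knockdown, those of the knockdown samples give only ANXA2P1 knockdown, and the methods of the study describe CRISPR interference with dCas9/KRAB, so the sources differ on the means of knockdown. The level of ANXA2P1 was not analysed here, which leaves the labels without a check on the targeted gene. No source used here says whether knockdown and control libraries were made side by side, and a batch following the groups cannot be told apart from the knockdown.

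Most ZNF proteins are built from tandem C2H2 zinc fingers, small folds held by a zinc ion that each read a few bases of DNA. A large class also carries an N-terminal KRAB domain, which binds the corepressor TRIM28 and through it the H3K9 methyltransferase SETDB1 and HP1 proteins, and many of these silence transposable elements. KRAB zinc finger genes arose by repeated local duplication, so they lie in clusters, above all on chromosome 19, and their transcripts share sequence.

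All 262 members had a row in GENCODE release 29 (hg38), and their translated coding sequences held a median of 10 C2H2 patterns (2 cysteines and 2 histidines at finger spacing). ZNF462 had the most, with 33. A KRAB-like stretch, scored by alignment to the N-terminus of ZNF10, was found in 158 members, and the other 104 are called members without KRAB below. KRAB-like members had a median of 12 finger patterns and the others a median of 7. No pattern was found in 5 members, namely ZNF703, ZNF503, ZNF330, ZNF451 and ZNF720. Chromosome 19 held 120 of the members, or 45.8%, against 7.78% of all tested genes, followed by chromosome 7 with 20 and chromosome 16 with 19.

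Recovered reads numbered 19206030, 21669009 and 21357066 in knockdown 1, 2 and 3, and 22501077, 21303859 and 23132742 in controls 1, 2 and 3. Knockdown 1 thus had the lowest depth. A member had between 101 and 7570 reads in a library, with a median of 594.5. The epithelial markers EPCAM, KRT8, KRT18, KRT19, CLDN4 and CDH17 were all present (EPCAM 229 to 256 FPKM in knockdown and 235 to 240 FPKM in control libraries). Of the markers of other cells, COL1A1 stood between 1.5 and 1.6 FPKM in knockdown and between 1.4 and 1.6 FPKM in control libraries, LYZ had 175 to 343 FPKM in knockdown and 182 to 374 FPKM in control libraries, and the other 11 of 13 had no row in the table. Reads of overlapping genes and of near-identical paralogs can be assigned to either gene, and the strand setting of the counting is not given. In the annotation 49 members overlapped another coding gene on their own strand and 48 on the other strand, so single values of such genes are uncertain.

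The knockdown libraries did not behave alike, which bears on every comparison that follows. In knockdown 1 the level of a gene moved with the GC content of its transcript. All tested genes were divided into 4 equal bins by GC content. Among the other genes (non-members) of the lowest bin the median difference from the control mean was -0.20 on the log2 scale in knockdown 1, and in the highest bin it was 0.18. In knockdown 3 the same medians were 0.031 and -0.035. Members had a median GC content of 44.3%, against 48.9% for all tested genes.

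No member passed the adjusted p in the comparison of knockdown with control cells. Of the 10813 genes tested with limma on log2(FPKM + 0.1), 14 passed, which is 0.129%, with 12 lower and 2 higher in knockdown cells, and 0 of the 262 members were among them, and limma's voom on recovered reads also called 0 members. At an unadjusted p under 0.05, 27 members were higher in knockdown cells and 5 were lower (10.3% and 1.91% of the members, against 4.71% and 5.92% of all tested genes). With a fold above 1.2 in addition, 11 members were higher and 2 lower, against 1.54% and 3.35% of all tested genes. The members therefore lay above the background among the higher genes and below it among the lower genes in these counts, while no single gene cleared the threshold.

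The log2 fold change of the members ran between -0.31 and 0.68 with a median of 0.081, against a median of 0.010 over all tested genes. It was positive for 188 members (71.8%), against 53.1% of all tested genes. All 3 knockdown libraries lay above all 3 controls for 43 members (16.4%, background 9.86%) and below all of them for 5 (1.91%, background 9.13%). The median member had a mean of 5.09 FPKM in knockdown cells and 4.75 FPKM in control cells. In bulk RNA a lower or higher value per cell and a different number of expressing cells cannot be told apart.

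**Figure D1:**
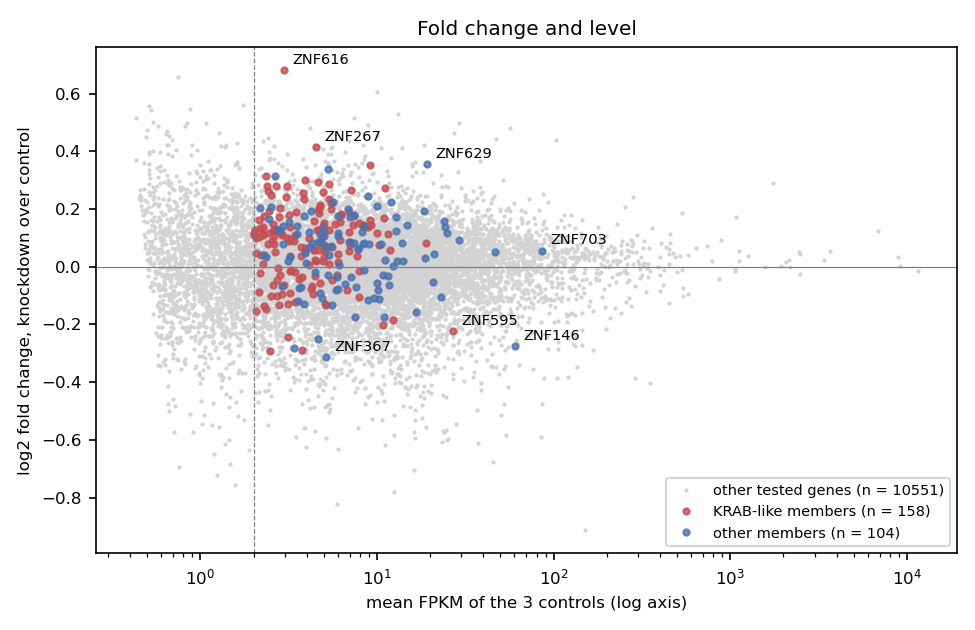
Log2 fold change (knockdown over control, on log2(FPKM + 0.1)) against the mean FPKM of the 3 controls (log axis) for 158 KRAB-like members (red), 104 other members (blue) and 10551 other tested genes (grey), with the 2 FPKM threshold as a dashed line. Members spread from -0.31 to 0.68 around a median of 0.081, and ZNF616 has the highest value of all tested genes.

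The upward shift was not shared by the 3 knockdown libraries. The median difference of the members from their control mean was -0.027 in knockdown 1, 0.049 in knockdown 2 and 0.19 in knockdown 3 on the log2 scale, against -0.013, 0.035 and -0.017 in controls 1, 2 and 3. The controls are measured from their own mean, which holds their values near 0, so they understate the spread to set beside knockdown libraries. For all tested genes the medians lay between 0.000 and 0.020 in the knockdown libraries. Members above their control mean numbered 122 in knockdown 1, 170 in knockdown 2 and 221 in knockdown 3. The summed FPKM of the members was 1800, 1826 and 1977 in the knockdown libraries and 1758, 1826 and 1769 in the controls. In these sums only knockdown 3 lay outside the range of the controls.

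Leaving out single knockdown libraries moved the counts accordingly. Without knockdown 3 the median of the members was 0.011, the same as the 0.011 of all tested genes, and 7 members were higher and 11 lower at fold 1.2 and unadjusted p (2.67% and 4.198% of the members, against 2.70% and 6.47% of all genes tested in that fit). The share of higher members was then that of the background. Without knockdown 1 the median was 0.12, and 35 members were higher and 1 lower (13.4% and 0.382%, against 2.19% and 4.26% of all genes tested in that fit). In that fit 10 members passed the limma adjusted p, with 2.36% of all genes passing. They were ZNF616, ZNF721, ZNF468, ZNF440, ZNF232, ZNF714, ZNF324B, ZNF317 and ZNF629, all higher, and ZNF48, lower.

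KRAB-like members carried more of the difference between libraries. Their medians were -0.045, 0.063 and 0.23 in knockdown 1, 2 and 3, and those of the members without KRAB were 0.050, 0.028 and 0.11. Over the 6 libraries the median log2 fold change was 0.098 for KRAB-like members and 0.066 for the others, and 74.7% and 67.3% of them were positive. KRAB-like transcripts had a median GC content of 43.0% and the other members 51.6%. The classes differ in GC content as well as in KRAB, and the difference between them was not tested.

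**Figure D2:**
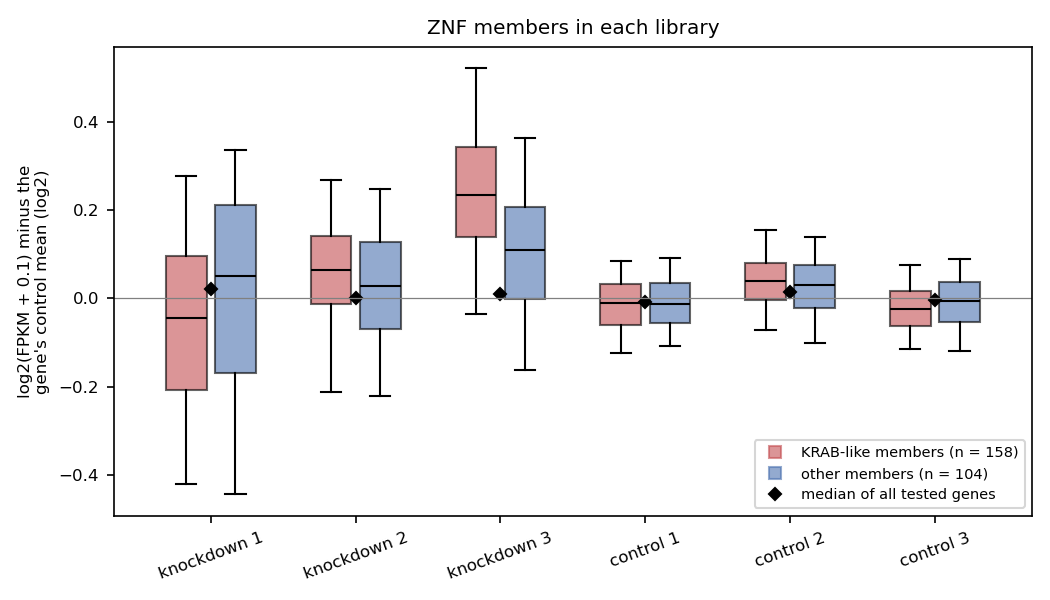
Difference of log2(FPKM + 0.1) from the gene's own control mean in each library (log2 units) for KRAB-like members (red) and other members (blue), with boxes from the 25th to the 75th percentile, whiskers from the 5th to the 95th percentile and diamonds for the median of all tested genes. The KRAB-like box sits highest in knockdown 3 (median 0.23) and lowest in knockdown 1 (median -0.045). The control boxes lie near 0, where measuring them from their own mean holds them.

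The members were split by these GC bins to set them beside other genes of like composition. In the lowest bin (95 members) their medians were -0.18, 0.033 and 0.28 in knockdown 1, 2 and 3, and those of the other genes were -0.20, -0.059 and 0.031. In the second bin (75 members) they were -0.11, 0.040 and 0.20, against -0.053, -0.018 and 0.024. In the third bin (37 members) they were 0.16, 0.087 and 0.16, against 0.091, 0.031 and 0.006. In the highest bin (55 members) they were 0.24, 0.079 and 0.063, against 0.18, 0.039 and -0.035. In knockdown 2 and 3 the members lay above the other genes in every bin, and in knockdown 1 they lay above them in 3 bins and below them in 1. With the trend on GC content and transcript length removed in each library, an alternative chosen after seeing the data, the member medians were 0.029, 0.056 and 0.17. The median log2 fold change was then 0.080, and 1 member passed the limma adjusted p, with 0.575% of all genes passing.

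**Figure D3:**
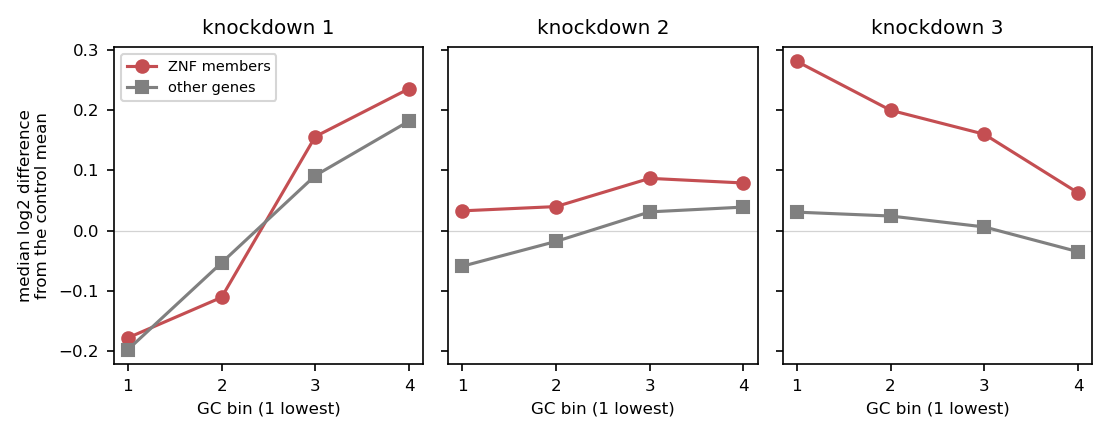
Median log2 difference from the control mean by bin of transcript GC content (1 lowest, 4 highest) in each knockdown library, for ZNF members (red circles) and other tested genes (grey squares). Both lines climb from low to high GC in knockdown 1, and the members lie above the other genes in every bin of knockdown 2 and 3.

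Members also scattered more between knockdown libraries than other genes did. The median coefficient of variation was 11.5% over the knockdown libraries and 5.09% over the controls for members, and 8.78% and 5.03% for other tested genes. It was larger in the knockdown libraries for 211 of the 262 members (80.5%), against 72.2% of other tested genes. The 5 members that were lowest in knockdown 1 relative to knockdown 2 and 3 were ZNF430, ZNF860, ZNF354A, ZNF670 and ZNF107, all KRAB-like, with a transcript GC content between 34.8% and 41.7%. ZNF430 had 1.69, 2.47 and 3.31 FPKM in knockdown 1, 2 and 3, against 2.22, 2.23 and 2.08 FPKM in the controls. ZNF354A had 3.98, 5.68 and 7.18 FPKM in knockdown cells, against 4.81, 5.24 and 4.98 FPKM in control cells. In both genes the controls lay close together and between the extremes of the knockdown libraries. The 5 that were highest in knockdown 1 were ZNF358, ZNF76, ZNF48, ZNF688 and ZNF446. ZNF358 had 6.13, 4.07 and 3.40 FPKM in knockdown cells, against 3.98, 4.17 and 4.40 FPKM in control cells, and its transcript had a GC content of 69.1%.

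ZNF629, a protein with 19 finger patterns and no KRAB-like stretch, had the smallest p of the members. It lies on chromosome 16 from 30778449 to 30787202 (hg38). Its level was 24.0, 24.7 and 24.6 FPKM in knockdown cells, against 18.7, 19.02 and 19.6 FPKM in control cells. The groups did not overlap and the replicates of each group differed by little. The log2 fold change was 0.35 (SE 0.056, limma adjusted p = 0.0689). Without knockdown 1 it was 0.37 (limma adjusted p = 0.0111), and after removal of the GC and length trend 0.31 (limma adjusted p = 0.0413). Over the alternatives the limma adjusted p lay between 0.0111 and 0.420.

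ZNF616, a KRAB-like protein with 21 finger patterns, had the largest fold change of any tested gene. Its gene is on chromosome 19 from 52113091 to 52139922 (hg38). It had 3.70, 5.25 and 5.64 FPKM in knockdown cells, against 2.76, 2.64 and 3.50 FPKM in control cells, so the groups were separated by a narrow gap between knockdown 1 and control 3. The log2 fold change was 0.68 (SE 0.17, limma adjusted p = 0.187). Without knockdown 1 it was 0.86 (limma adjusted p = 0.00558), and over the alternatives the adjusted p lay between 0.00558 and 0.612. Between 291 and 621 reads stood behind each value.

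The other members with the largest positive fold changes and separate groups were mostly KRAB-like. ZNF317 had 11.1, 11.7 and 12.2 FPKM in knockdown cells, against 8.89, 8.61 and 9.87 FPKM in control cells (log2 fold change 0.35, SE 0.076, limma adjusted p = 0.132). ZNF267 had 5.29, 5.45 and 7.65 FPKM in knockdown cells, against 4.47, 4.43 and 4.61 FPKM in control cells. Its excess was largest in knockdown 3, as for the members as a whole. ZNF416 had 5.87, 5.50 and 5.70 FPKM in knockdown cells, against 4.81, 4.66 and 4.41 FPKM in control cells (log2 fold change 0.29, limma adjusted p = 0.173). ZNF3 had 6.44, 6.21 and 7.01 FPKM in knockdown cells, against 5.37, 5.58 and 5.10 FPKM in control cells (0.29, limma adjusted p = 0.218). ZNF416 overlaps ZIK1 and ZNF3 overlaps ZSCAN21 on the other strand. ZNF764, which overlaps a coding gene on its own strand, had 5.23, 4.74 and 4.63 FPKM in knockdown cells, against 3.79, 4.18 and 3.83 FPKM in control cells. ZNF184 had 2.64, 2.78 and 3.44 FPKM in knockdown cells, against 2.55, 2.16 and 2.32 FPKM in control cells. ZNF324B had 2.75, 3.77 and 3.32 FPKM in knockdown cells, against 2.65, 2.61 and 2.73 FPKM in control cells. In both ZNF184 and ZNF324B knockdown 1 stood barely above the highest control. ZNF232, without KRAB and overlapping USP6 on the other strand, had 6.04, 6.93 and 7.30 FPKM in knockdown cells, against 5.47, 5.15 and 5.29 FPKM in control cells (log2 fold change 0.34, limma adjusted p = 0.191).

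Of the 5 members below the controls in all knockdown libraries, 4 had an unadjusted p under 0.05. ZNF367, a protein with 2 finger patterns, had 3.74, 4.17 and 4.44 FPKM in knockdown cells, against 5.09, 5.22 and 5.07 FPKM in control cells (log2 fold change -0.31, SE 0.083, limma adjusted p = 0.218). ZNF595, a KRAB-like gene on chromosome 4 from 53285 to 88211 (hg38), had 23.7, 22.6 and 23.0 FPKM in knockdown cells, against 26.6, 28.2 and 26.2 FPKM in control cells (-0.22, SE 0.060, limma adjusted p = 0.221). The 3 knockdown libraries agreed closely in ZNF595. ZNF608 had 3.68, 3.70 and 4.26 FPKM in knockdown cells, against 4.28, 4.91 and 4.69 FPKM in control cells, with hardly a gap between the groups. ZNF296, which in mouse takes part in reprogramming to pluripotency, had 6.33, 6.95 and 6.64 FPKM in knockdown cells, against 7.43, 7.37 and 7.72 FPKM in control cells. The fifth was ZNF850, with 2.52, 3.21 and 3.60 FPKM in knockdown cells, against 3.89, 3.81 and 3.63 FPKM in control cells.

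**Figure D4:**
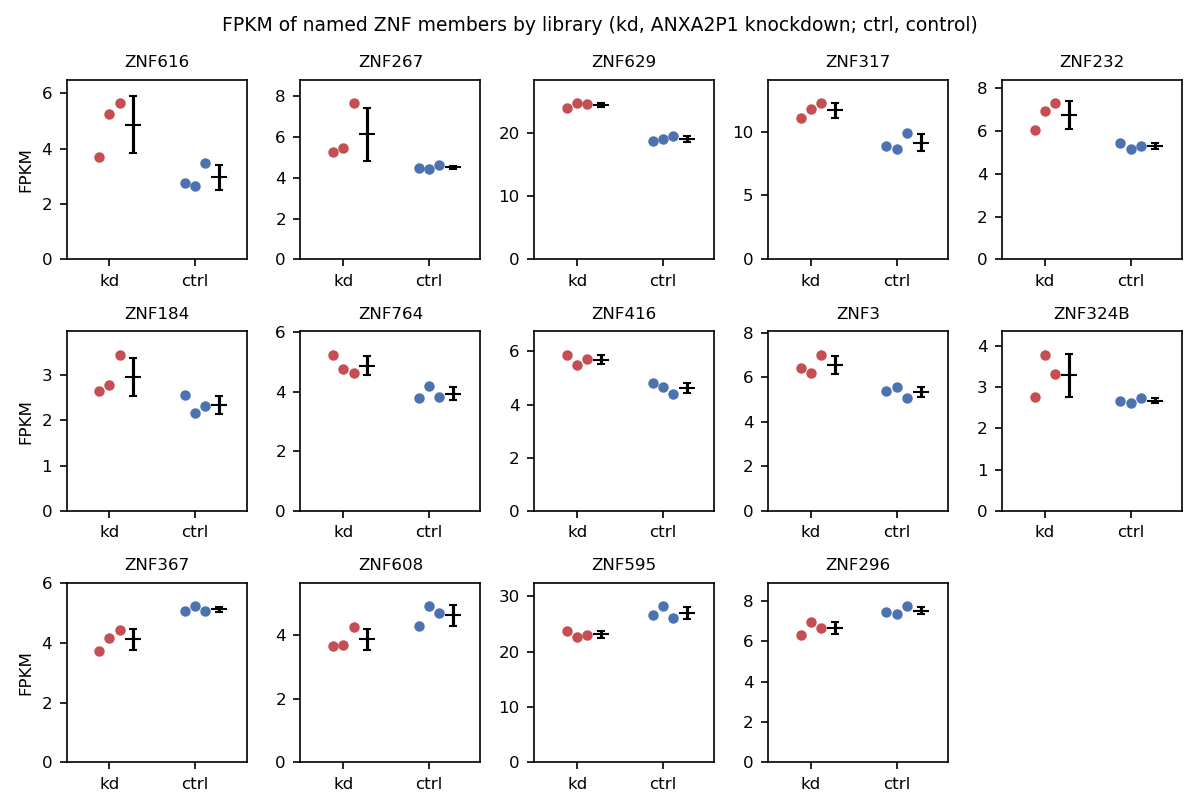
FPKM in each library for the 10 higher and 4 lower members with the largest fold changes among those with separate groups and an unadjusted p under 0.05, with knockdown (kd, red) left of control (ctrl, blue) and the mean ± SD (n = 3) in black beside the points. ZNF629 shows tight groups at 24.4 and 19.1 FPKM, whereas ZNF616 and ZNF267 spread widely over the knockdown libraries.

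Of the 10 members with the highest control means, ZNF595 and ZNF146 had an unadjusted p under 0.05, both with negative fold changes. ZNF595 is described above. ZNF703, a NET family corepressor, had 103, 83.3 and 80.9 FPKM in knockdown cells, against 80.02, 90.8 and 85.5 FPKM in control cells, so the groups overlapped. ZNF146, a protein made almost only of fingers, had 42.1, 49.5 and 59.2 FPKM in knockdown cells, against 60.02, 61.8 and 59.1 FPKM in control cells. Its coefficient of variation was 17.1% over the knockdown libraries and 2.24% over the controls, and the highest knockdown value reached the controls (log2 fold change -0.27, limma adjusted p = 0.446). ZNF664, ZNF581, ZNF787, ZNF622, ZNF672, ZNF217 and ZNF503 had log2 fold changes between -0.10 and 0.16. Only 11 members had a control mean of 20 FPKM or more, and their median log2 fold change was 0.050. Of these 11, 2 (18.2%, background 5.92%) were lower and 0 higher at the unadjusted p. The medians were 0.086 for the 141 members at 2 to 5 FPKM, 0.083 for the 81 at 5 to 10 FPKM and 0.058 for the 29 at 10 to 20 FPKM. The library pattern differed by level. In knockdown 1, 2 and 3 the medians were -0.059, 0.051 and 0.22 at 2 to 5 FPKM. At 5 to 10 FPKM they were -0.006, 0.055 and 0.19. At 10 to 20 FPKM (0.12, 0.029 and 0.069) and at 20 FPKM or more (0.12, 0.015 and 0.002) knockdown 1 was highest. Median GC content was 43.1%, 45.8%, 55.7% and 53.2% from the lowest level to the highest.

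At the threshold itself the members just inside were ZNF736, ZNF446 and ZNF91. ZNF91, a KRAB repressor of SVA elements with 31 finger patterns, had 1.96, 2.12 and 2.64 FPKM in knockdown cells, against 1.91, 2.09 and 2.08 FPKM in control cells. Just outside were ZNF597, ZNF793 and ZNF805, with control means of 1.999, 1.991 and 1.989 FPKM. ZNF793 had 2.03, 2.34 and 2.74 FPKM in knockdown cells, against 1.91, 1.97 and 2.09 FPKM in control cells. The threshold therefore cut through genes of the same level. With membership set by the knockdown mean instead, 273 genes entered and the median log2 fold change was 0.083.

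Members listed for roles other than KRAB repression were described by list. None of the 9 members acting in ribosomes, RNA or the nucleolus passed the adjusted p. Their median log2 fold change was 0.019, and their medians in knockdown 1, 2 and 3 were -0.17, -0.004 and 0.046. Among them ZNF598, a ubiquitin ligase that marks collided ribosomes, had 14.5, 13.8 and 14.6 FPKM in knockdown cells, against 13.6, 14.2 and 14.5 FPKM in control cells. ZNF638, an RNA-binding nuclear protein, had 7.41, 9.63 and 12.7 FPKM in knockdown cells, against 10.8, 11.5 and 10.5 FPKM in control cells, so its knockdown libraries lay on both sides of the controls. The 7 members listed as activators of transcription had a median of 0.039. The list describes ZNF263 and ZNF384 only as C2H2 factors and ZNF335 as a subunit of histone methyltransferase complexes, and ZNF263 is KRAB-like. ZNF143, which activates snRNA and many mRNA promoters, had 5.47, 6.26 and 7.30 FPKM in knockdown cells, against 7.19, 6.38 and 6.19 FPKM in control cells. The 11 members listed for corepressor complexes had a median of 0.044. ZNF512B, for which the list gave no role, had the largest value (7.75, 8.02 and 7.93 FPKM in knockdown cells, against 6.63, 6.32 and 7.70 FPKM in control cells). Its groups did not overlap (log2 fold change 0.20, unadjusted p = 0.0447 in the limma fit, n = 3 per group), but knockdown 1 stood barely above control 3. The limma adjusted p was 0.457 and lay between 0.251 and 0.853 over the alternatives. ZNF217, a partner of CtBP and CoREST that is amplified in cancers, had 20.1, 20.9 and 22.9 FPKM in knockdown cells, against 21.2, 24.6 and 22.9 FPKM in control cells. ZNF207, known as BuGZ and active in spindle assembly, had 10.8, 11.1 and 11.7 FPKM in knockdown cells, against 12.2, 11.3 and 11.7 FPKM in control cells.

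The list of KRAB repressors of transposons and imprinted genes held 5 members, of which 4 had positive fold changes, with a median of 0.11. For ZNF202, which is among them, the list gave no such role. ZNF93, a repressor of LINE-1, had 2.28, 2.78 and 3.49 FPKM in knockdown cells, against 2.62, 2.57 and 2.61 FPKM in control cells. ZNF274, which recruits SETDB1 to the ends of ZNF genes, had 3.41, 2.94 and 3.66 FPKM in knockdown cells, against 3.08, 3.15 and 3.06 FPKM in control cells. ZNF445, a regulator of imprinting, had 2.30, 2.92 and 3.11 FPKM in knockdown cells, against 2.78, 3.01 and 2.66 FPKM in control cells. In all 3 genes knockdown 3 had the highest value of the 6 libraries and the groups overlapped. The groups of ZNF91, given above, also overlapped. ZNF202 was the 1 member of this list with all knockdown libraries above all controls. No member of the list had an unadjusted p under 0.05 in the limma fit.

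The cofactors of KRAB proteins were described from a list of 17 genes with a row in the table. None passed the adjusted p. Fold changes were negative for 12 and positive for 5 (29.4%, against 53.1% of all tested genes), and the median over the list was -0.069 (log2). Their median difference from the control mean was -0.25 in knockdown 1, -0.045 in knockdown 2 and 0.037 in knockdown 3. The median GC content of these cofactors was 44.1%. Non-members of the lowest GC bin had medians of -0.20, -0.059 and 0.031 in these libraries. Those of the second bin had -0.053, -0.018 and 0.024. Whether the cofactors differ from genes of like GC content was not tested. TRIM28, the corepressor bound by KRAB domains, had 222, 246 and 219 FPKM in knockdown cells, against 237, 203 and 236 FPKM in control cells. SETDB1 had 6.71, 7.18 and 7.90 FPKM in knockdown cells, against 7.01, 7.13 and 7.28 FPKM in control cells. The groups overlapped for TRIM28 and SETDB1. SMARCAD1, a remodeller that binds TRIM28, had 10.2, 11.98 and 12.9 FPKM in knockdown cells, against 15.4, 16.2 and 15.1 FPKM in control cells (log2 fold change -0.41, SE 0.090, limma adjusted p = 0.137). Leaving out knockdown 1 brought the limma adjusted p to 0.0302, and removing the trend on GC content and length brought it to 0.0412. Over the alternatives it lay between 0.0302 and 0.527. CBX1, or HP1 beta, had 37.9, 44.8 and 43.2 FPKM in knockdown cells, against 52.0, 48.7 and 50.9 FPKM in control cells (-0.27, limma adjusted p = 0.259). DAXX, a chaperone of histone H3.3, had 18.9, 18.4 and 17.8 FPKM in knockdown cells, against 16.3, 16.6 and 16.6 FPKM in control cells (0.15, limma adjusted p = 0.385). ATF7IP had 5.43, 6.38 and 6.61 FPKM in knockdown cells, against 6.79, 7.25 and 6.79 FPKM in control cells (-0.18, limma adjusted p = 0.517). The groups did not overlap in SMARCAD1, CBX1, ATF7IP and DAXX. Of the 17 genes, 3 lay below all controls in every knockdown library (17.6%, background 9.13%) and 1 above (5.88%, background 9.86%).

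Along chromosome 19 the members fell into blocks, taken as runs of ZNF genes with gaps of at most 1 Mb. The block nearest the end of the long arm (block 15, 55.5 to 58.5 Mb, hg38) held 36 members, of which 32 had positive fold changes (88.9%, against 53.1% of all tested genes), with a median of 0.14. In 10 of them all knockdown libraries lay above all controls (27.8%, background 9.86%). Its medians in knockdown 1, 2 and 3 were 0.11, 0.10 and 0.19, so here the 3 libraries lay on the same side. ZNF772 had 8.32, 8.72 and 8.67 FPKM in knockdown cells, against 6.96, 7.51 and 6.86 FPKM in control cells. ZNF132 had 6.46, 6.40 and 6.46 FPKM in knockdown cells, against 5.10, 5.70 and 5.75 FPKM in control cells. These genes were also even across the knockdown libraries. The members of this block had a median GC content of 47.1%.

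Block 5, from 19.7 to 24.1 Mb, held 10 members, all KRAB-like, including ZNF91 and ZNF93. All 10 had positive fold changes, with a median of 0.13, but the medians by library were -0.042, 0.15 and 0.41 and the median GC content was 37.5%. ZNF101 had 3.66, 3.58 and 3.64 FPKM in knockdown cells, against 3.05, 2.89 and 3.20 FPKM in control cells, and ZNF708 had 4.07, 4.28 and 5.54 FPKM, against 3.70, 3.89 and 3.91 FPKM. These were the members of the block with separate groups. Block 14, from 51.6 to 53.5 Mb, which holds ZNF616, had 19 members with a median of 0.060 and library medians of -0.17, 0.036 and 0.32. Block 8, from 36.2 to 37.8 Mb, had 14 members with a median of 0.057, of which 5 were negative, ZNF146 and ZNF850 among them. Members on chromosome 19 had a median of 0.091 and members elsewhere a median of 0.079. Neighbouring genes in a block share sequence, so their values are not independent.

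**Figure D5:**
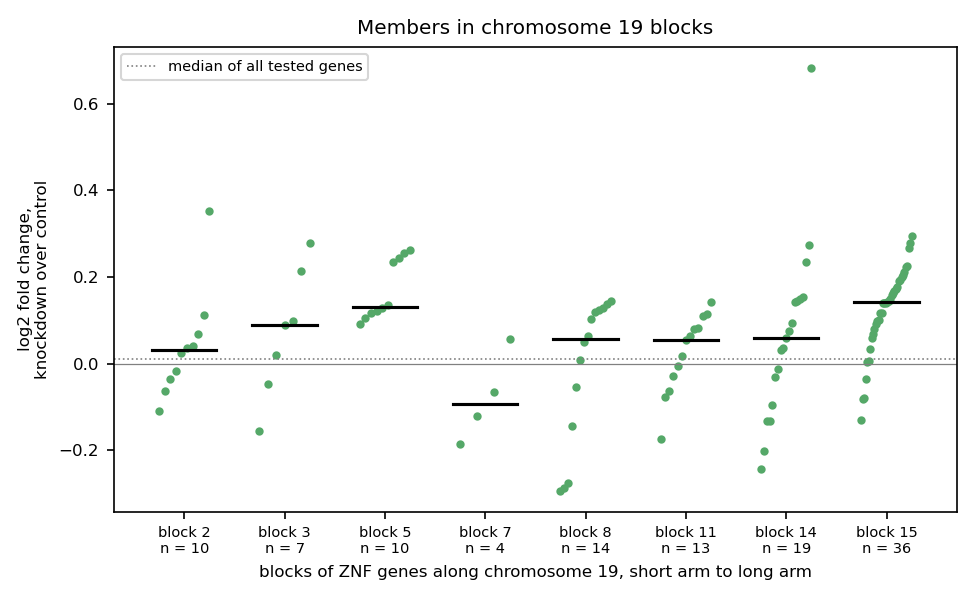
Log2 fold change (knockdown over control) of each member (points, sorted within a block) in the chromosome 19 blocks with at least 4 members, from short arm to long arm, with the block median as a black line and the median of all tested genes dotted. Blocks 5 and 15 have medians of 0.13 and 0.14, and block 7, with 4 members, has a median of -0.094.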

How the data were processed

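Poly(A) RNA of AGS cells was analysed in 3 ANXA2P1 knockdown and 3 control libraries, grouped by the treatment label. The authors deposited FPKM values, 1 column per library; per the submitters' processing notes Bowtie2, TopHat and hg38 were used, without versions. The counter, annotation and strand setting, and any filter on low values, were not given in the sources used here. All columns were used (0 left unmapped). Values were tested as log2(FPKM + 0.1), a scale that understates changes of low genes, for genes with a mean of at least 0.5 FPKM, with limma 3.58.1 in R 4.3.3 (eBayes with trend and robust settings) over all 6 libraries without covariates. P-values were adjusted by Benjamini-Hochberg at 0.05 over all tested genes. The fit was tested on simulated data with independent noise in each gene and library. Such data hold no trend shared by genes, so they cannot show how the fit handles the GC trend of knockdown 1. The p-values measure the spread between 3 replicates per group.

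Whole reads were recovered from the FPKM values for 11845 of 11846 genes (99.99%, within 0.02 reads), and limma's voom on them was an added alternative. Positions, transcript GC content and length came from GENCODE release 29. Finger patterns and the KRAB-like class came from its translated coding sequences in place of RefSeq proteins, with Biopython 1.88. KRAB-like was a local alignment score of at least 60 to the first 90 residues of ZNF10, set after seeing that the scores fell into separate ranges; 5 members scored 40 to 60 and 6 scored 60 to 80. The GC and length trend was removed with splines of 4 degrees of freedom.

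The members, lists and rules were chosen with earlier results of these data known. The named genes were the 10 members with the highest control mean, up to 10 per direction with the largest fold change among those with an unadjusted p under 0.05 and separate groups, any member past the adjusted p, 3 on either side of the threshold, members of the role lists, the KRAB cofactors, and the 5 per direction in which knockdown 1 differed most from knockdown 2 and 3. ZNF850, ZNF772, ZNF132, ZNF579, ZNF551, ZNF101 and ZNF708, and the members named from single alternatives, were chosen after their values were seen. Of the role lists, ZNF593, ZNF410, ZNF750 and ZNF331 were not analysed here, and ZNF10 and ZNF268 lay under 2 FPKM.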

Additional observations from a re-analysis of the deposited data

How the results depend on the processing

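The count of members past the limma adjusted p was 0 in every alternative except without knockdown 1 and after removal of the GC and length trend (like voom, chosen after seeing the data), where it was 1. Leaving out 1 library gave 0 to 10 members. The count at fold 1.2 and unadjusted p was 13 (2 lower, 11 higher). It was 6 (1 and 5) with a pseudocount of 1, 35 (0 and 35) with array weights, 24 (1 and 23) after removal of that trend, and 7 (5 of them higher) among the 121 members at a control mean of at least 5. Of all tested genes 2.32% were lower and 0.832% higher with a pseudocount of 1, 3.21% and 2.52% with array weights, and 3.01% and 1.58% after removal of the trend. In the reported fit 3.35% were lower and 1.54% higher, with genes of all levels counted. The lower count was 1 with a common total and 1 without trend or robust settings, against 3.53% and 3.42% of all tested genes. Leaving out 1 library gave 10 to 36 members, with 1 to 11 lower and 7 to 35 higher. In those fits 2.67% to 6.47% of all tested genes were lower and 1.35% to 2.70% higher. The median log2 fold change lay between 0.011 and 0.12 when 1 library was left out and was 0.14 with array weights. With the replicate block 0 members passed and 12 (2 lower, 10 higher) met the fold and unadjusted p, against 3.26% lower and 1.37% higher of all tested genes. Same-numbered libraries deviated apart (correlations -0.34, -0.47 and -0.12), and no library correlated best with its own number. Deviations from a group mean are tied to each other within the group. These correlations therefore cannot settle which libraries were prepared together. Of 79 named genes, 18 had an unadjusted p under 0.05 and separate groups, and 0 of these changed sign in any of 17 alternatives. Separate groups keep the sign whichever library is left out. This 0 was therefore largely fixed by how the genes were picked. Of the other 61, 37 changed sign in at least 1 alternative, all with reported values of at most 0.18 in size. The cause of these shifts was not tested.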

Other observations

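Other zinc finger genes had their highest library median in knockdown 3. The 109 tested ZNF genes with a control mean under 2 FPKM had a median log2 fold change of 0.051, and 63.3% were positive. Their medians were -0.067, 0.001 and 0.21 in knockdown 1, 2 and 3. The ZSCAN genes, zinc finger genes with a SCAN domain that lets proteins pair, had 14 tested genes, of which 13 were positive, with a median of 0.19 and library medians of 0.074, 0.15 and 0.28. The 38 ZBTB genes, which carry a BTB domain, had a median of 0.039 and library medians of 0.038, 0.005 and 0.15. The ZKSCAN genes are named for SCAN and KRAB domains, and 5 of the 6 in the table had a KRAB-like stretch. The 5 tested ZKSCAN genes had a median of 0.13 and library medians of 0.046, 0.080 and 0.28. In knockdown 1 the medians of the ZSCAN, ZBTB and ZKSCAN genes were positive, and those of the ZNF genes under 2 FPKM and of the members (-0.027) were negative. Median GC content also differed, at 47.5%, 46.1% and 47.0% for the ZSCAN, ZBTB and ZKSCAN genes. It was 42.8% for the ZNF genes under 2 FPKM and 44.3% for the members. None of these genes passed the limma adjusted p, and whether the families differ was not tested.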
